A study of Macaca mulatta with 136 samples.

Results

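Axon guidance genes of the semaphorin, plexin, slit, ROBO, netrin and UNC5 families, with DCC, were followed across the neural retina and the RPE/choroid of the rhesus macaque eye. The genes were taken by symbol: class 3 to class 7 semaphorins, plexins A to D, SLIT1 to SLIT3, ROBO1 to ROBO4, the netrins, UNC5A to UNC5D and DCC. This gave 44 of the 19422 gene identifiers measured, of which 7 were class 3 semaphorins, 14 were semaphorins of classes 4 to 7, 9 were plexins, 7 were slits or ROBO receptors and 7 were netrins, DCC or UNC5 receptors. SEMA4C stood under 2 identifiers, ENSMMUG00000007596 and ENSMMUG00000040289, which were kept apart. Reads that match both may have been divided between them, so both values are uncertain. Among the netrins, NTN1 and NTN4 were measured and the others were not analysed here.

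Postmortem eyes, right (OD) and left (OS), came from 2 adult rhesus macaques, RM03 and RM04, with no treatment or allele that differed between groups. Punches of 2 mm were cut at the fovea/macula, the perimacula, a nasal location and the periphery, and each was separated into neural retina and RPE/choroid, which is the retinal pigment epithelium with the vascular choroid beneath it. This made 8 groups, 2 tissues at 4 locations, each of 4 eyes, and 32 poly-A libraries in all. The 2 eyes of an animal are not independent animals. With the animal fitted as covariate, each p-value below rests on the spread left between libraries, pooled over the groups of the fit. It does not measure the spread between animals. Values of single eyes are always listed in the order RM03 right, RM03 left, RM04 right and RM04 left.

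Guidance proteins steer growing axons and migrating cells by attracting or repelling them. Semaphorins signal through plexins, and the secreted class 3 members mostly also need the neuropilins NRP1 and NRP2 as co-receptors. Slits repel axons through ROBO1 and ROBO2, whereas netrin-1 attracts through DCC and repels through the UNC5 receptors. Several of these genes also act in blood vessels: ROBO4 and PLXND1 are known from endothelium, and the choroid beneath the RPE is a dense vascular bed. In the developing retina, slits and ROBO2 guide the axons of ganglion cells, the output neurons of the retina, and DCC with netrin-1 directs those axons into the optic nerve head.

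Library totals ran from 42448891 to 78574034 estimated counts, and levels are given as CPM, counts scaled to library size after TMM normalization over the 32 libraries. The scale does not correct for gene length, so levels were compared between groups for a gene and never between genes. Each library of the fovea/macula, perimacula and nasal location was spread over 5 lanes of 2 flow cells, whereas the periphery had 2 lanes of 1 further flow cell. Periphery and flow cell therefore cannot be told apart in a comparison of locations. The tissue labels held against their defining markers: the 9 rod markers summed to 4013 to 28040 CPM in retina and 50.06 to 924.3 CPM in RPE/choroid, and the 6 RPE markers to 10000 to 24810 CPM in RPE/choroid and 146.7 to 1155 CPM in retina. Along the retina the 11 ganglion cell markers summed to 10470 to 12380 CPM in foveal libraries, 3246 to 6990 in perimacular, 2352 to 2652 in nasal and 594.4 to 1283 in peripheral ones, with all 11 higher in the mean at the fovea/macula than elsewhere. In RPE/choroid the 6 smooth muscle and pericyte markers summed to 5904 to 9162 CPM at the fovea/macula and 1042 to 2523 CPM in the periphery, and the 6 Schwann cell markers lay at 201.7 to 297.1 CPM in 10 of 16 libraries and reached 8685 and 2332 CPM in the perimacular RM03 right and RM04 left eyes and 5011, 14220, 607.5 and 1162 CPM in the 4 peripheral eyes. In bulk tissue, fewer cells of a type and less RNA per cell cannot be told apart.

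**Figure D1:**
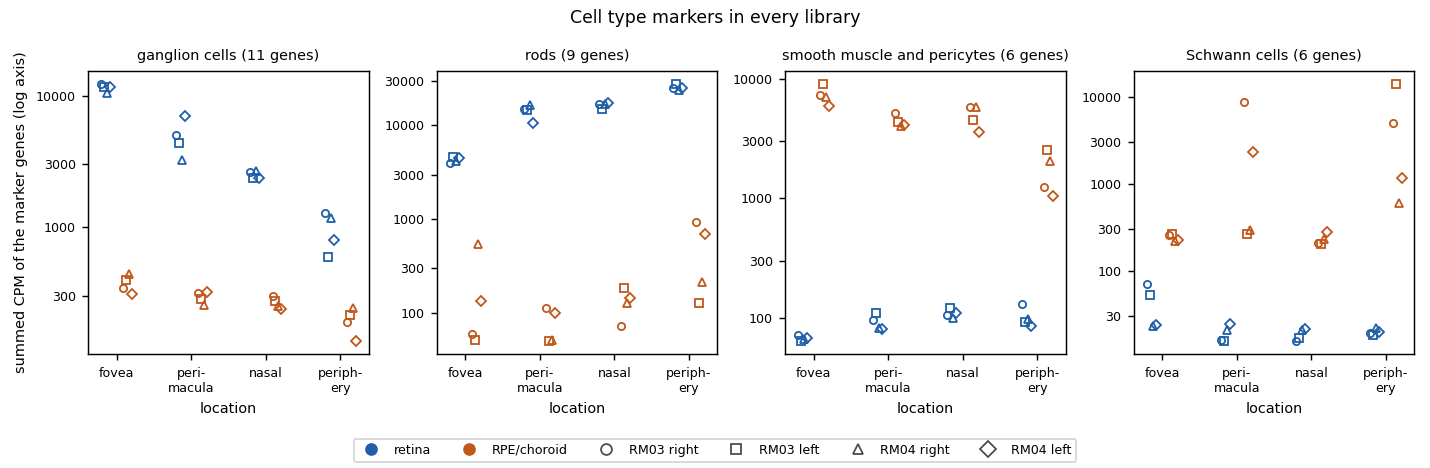
Summed CPM of 4 lists of cell type markers (log axis) in each of the 32 libraries, by location and tissue, with 1 symbol for each eye. Ganglion cell markers in retina (10470 to 12380 CPM at the fovea/macula against 594.4 to 1283 CPM in the periphery) and smooth muscle markers in RPE/choroid fall outwards, rods rise in retina, and Schwann cell markers separate single RPE/choroid libraries.

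Tests were edgeR's quasi-likelihood tests, fitted to all genes with the macaque as covariate, and a gene was called at a Benjamini-Hochberg adjusted p under 0.05. All adjusted p-values below come from that test unless DESeq2 is named. A positive log2 fold change is higher at the fovea/macula, or higher in retina where tissues are compared. Each SE of a fold change was derived as its absolute value divided by the square root of the F statistic of the test. Of the 44 guidance genes, 42 passed the filter on low counts in the retina fit of 3 locations and all 44 in the RPE/choroid fit. NTN1 and SEMA6A were left out in retina, where NTN1 had 0 to 5 counts per library and SEMA6A 0 to 38, and SEMA6A passed only in the fit with the nasal libraries.

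**Figure D2:**
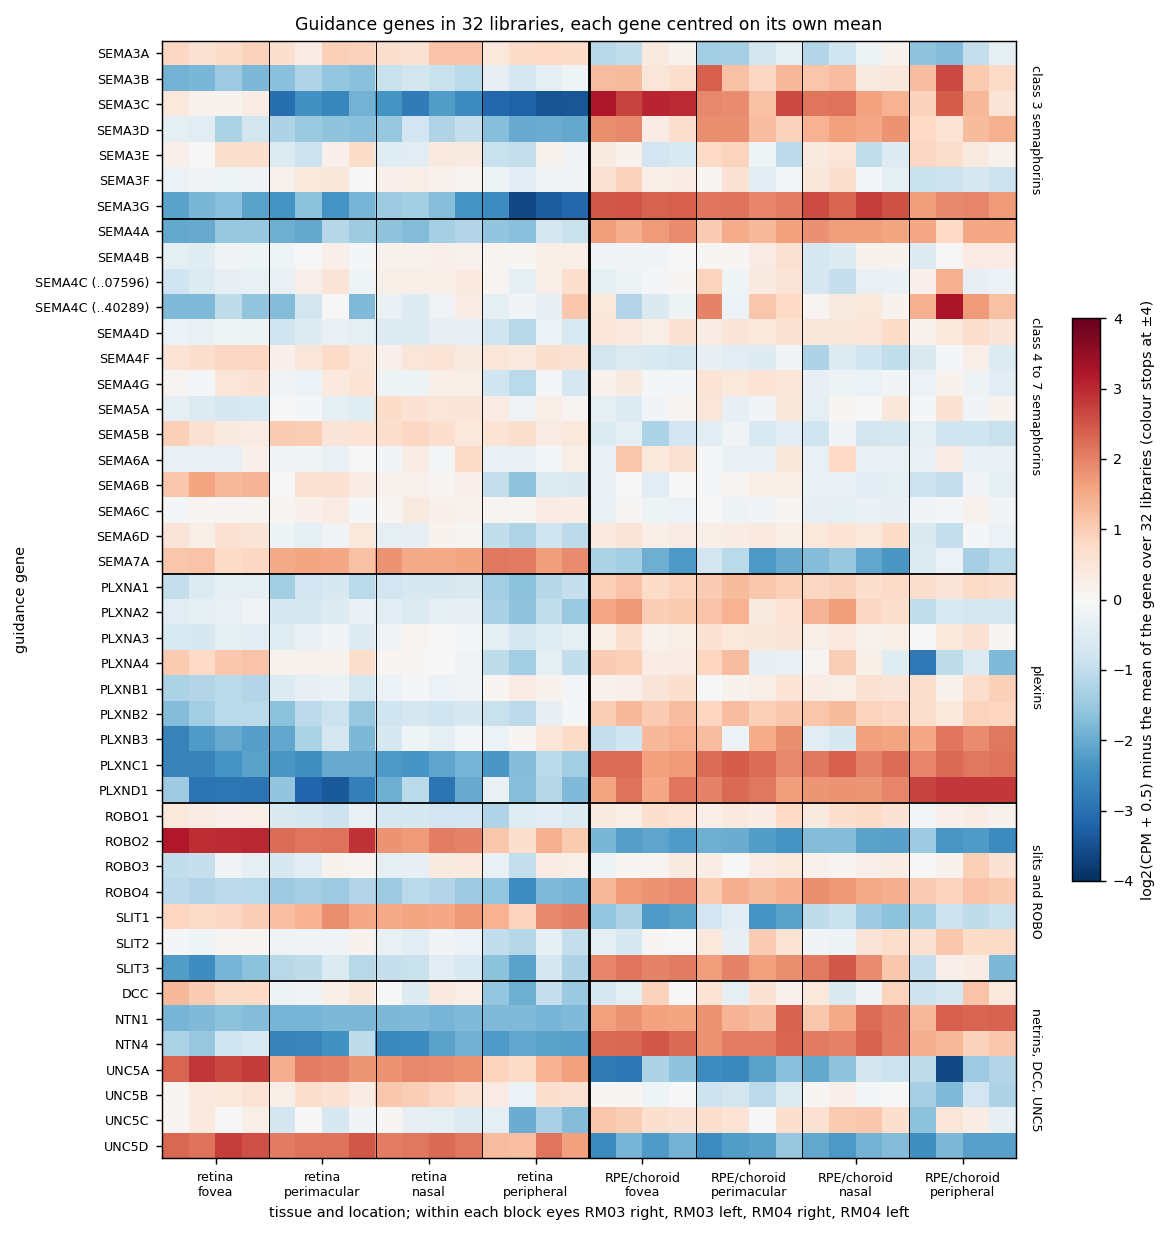
Each of the 44 guidance genes (rows, by role) in each of the 32 libraries (columns, by tissue and location), as log2(CPM + 0.5) minus the mean of that gene over all libraries. UNC5A, UNC5D, ROBO2 and SEMA7A are high in retina, SEMA3G, SEMA4A, PLXNC1, PLXND1 and NTN4 are high in RPE/choroid, and SEMA3C is highest within each tissue at the fovea/macula.

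The retina compared at its centre and in its periphery differed in most guidance genes. At the fovea/macula 21 genes were higher and 15 lower than in the periphery, 36 of 42 tested. Of all 15380 genes tested, 67.0% were called in this comparison, 31% higher and 36% lower. The median absolute log2 fold change was 0.944 for the guidance genes and 0.579 for all genes. Going outwards by way of the perimacula, mean levels of 21 of 42 guidance genes (50%) fell at both steps, with 29% of all genes doing so, and those of 14 (33.3%) rose at both steps, with 36.9% of all genes. Against the perimacula 14 were higher and 8 lower (22 of 42, background 35.2% with 19% higher and 16.2% lower), and against the nasal location 14 were higher and 16 lower (30 of 43, background 52.2% with 25.1% higher and 27.2% lower). Without RM03 right the perimacular count was 11 (background 20.9%) and without RM04 right it was 13 (background 22.2%). The 3 comparisons share their fovea/macula libraries.

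Among the secreted class 3 semaphorins in retina, 4 of 7 were higher at the fovea/macula than in the periphery, 1 was lower and 2 were not called. Here and for the other roles in retina, the shares of all genes were 31% higher and 36% lower. SEMA3C (ENSMMUG00000011785), a secreted ligand known from cardiac and neural development, had the largest fold change of all members in this comparison. Its levels in the 4 foveal eyes were 13.6, 11.3, 11.1 and 12.5 CPM, those at the perimacula 0.79, 1.44, 1.21 and 2.34, at the nasal location 1.48, 1.01, 1.75 and 1.31 and in the periphery 0.691, 0.612, 0.459 and 0.485. No eye at any other location reached the lowest foveal eye, and most of the fall lay between the fovea/macula and the perimacula. The difference passed the test against the periphery (log2 fold change 4.48, SE 0.29, adjusted p = 1.81e-07), the perimacula (log2 fold change 3.12, SE 0.27, adjusted p = 2.38e-05) and the nasal location (log2 fold change 3.17, SE 0.26, adjusted p = 3.43e-07). SEMA3D, SEMA3E and SEMA3G were also higher at the fovea/macula than in the periphery (1.79 ± 0.20, 0.94 ± 0.17 and 1.67 ± 0.35 log2, each ± SE). SEMA3A, a classic repellent of axons, was measured at 28.1 ± 2.51 CPM (SD, n = 4) at the fovea/macula and 26.1 ± 2.97 CPM in the periphery and was not called (adjusted p = 0.229).

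SEMA3B (ENSMMUG00000020117) was the class 3 member that ran the other way in retina. Its levels were 10.5, 11.1, 14.3 and 11.2 at the fovea/macula, 12.3, 17.1, 13.5 and 12.3 at the perimacula, 21.8, 24.3, 21.5 and 18.99 at the nasal location and 31.8, 24.8, 30.5 and 35.6 CPM in the periphery. Every peripheral and nasal eye lay above every foveal eye (log2 fold change -1.33, SE 0.15, adjusted p = 6.78e-06 for the periphery, and log2 fold change -0.84, SE 0.14, adjusted p = 0.000193 for the nasal location). The perimacular eyes overlapped with the foveal ones and did not pass the test (adjusted p = 0.365).

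Semaphorins of classes 4 to 7, which are membrane-bound or anchored, were divided in retina: against the periphery 5 were higher at the fovea/macula, 6 lower and 2 not called. SEMA6B (ENSMMUG00000023702), a transmembrane ligand of class A plexins, measured 46.5, 64.1, 53.8 and 54.7 at the fovea/macula, 21.2, 32.4, 32.2 and 25.8 at the perimacula, 23.5, 23.7, 22.4 and 24.3 at the nasal location and 10.6, 6.63, 14.8 and 13.9 CPM in the periphery. The foveal eyes were above all others, and the peripheral eyes were below all others (log2 fold change 2.34, SE 0.21, adjusted p = 1.42e-06, and log2 fold change 1.26, SE 0.20, adjusted p = 8.15e-05 against the nasal location). SEMA6D followed with 110.5 ± 11.2 CPM at the fovea/macula and 39.9 ± 4.74 CPM in the periphery (log2 fold change 1.52, SE 0.13, adjusted p = 1.09e-06). SEMA4G (0.97 ± 0.12 log2), SEMA4D (0.53 ± 0.12) and SEMA4F (0.25 ± 0.087) were higher by less, and SEMA4F was not called without RM03 left (0.21, adjusted p = 0.113), RM04 right (0.26, adjusted p = 0.0733) or RM04 left (0.25, adjusted p = 0.0908).

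SEMA7A (ENSMMUG00000021825), the membrane-anchored ligand of plexin C1, was lowest at the fovea/macula of the retina. It measured 115, 116, 88.8 and 93.3 at the fovea/macula, 152, 158, 156 and 119 at the perimacula, 184, 153, 152 and 157 at the nasal location and 230.1, 226, 171 and 197 CPM in the periphery. The foveal eyes were below every eye of the other 3 locations (log2 fold change -0.95, SE 0.085, adjusted p = 1.38e-06 against the periphery). SEMA5A (ENSMMUG00000020160), which binds plexins A1 and A3, was highest at the nasal location: 25.8, 23.3, 21.5 and 22.2 CPM there, 11.5, 10.4, 9.42 and 9.88 at the fovea/macula, 15.1, 14.7, 11.8 and 10.7 at the perimacula and 19.5, 13.9, 18.5 and 16.7 in the periphery. All nasal eyes were above all eyes of the other locations in retina (log2 fold change -1.13, SE 0.12, adjusted p = 2.20e-06). SEMA4A, SEMA4B and both SEMA4C entries were lower at the fovea/macula than in the periphery as well (-0.53 ± 0.092, -0.41 ± 0.079, -0.64 ± 0.17 and -2.23 ± 0.53 log2). The entry ENSMMUG00000007596 was not called without RM03 right (-0.54, adjusted p = 0.067). The entry ENSMMUG00000040289 had low levels, 0.492, 0.487, 1.17 and 0.63 at the fovea/macula, 2.28, 1.84, 2.55 and 3.59 at the nasal location and 2.08, 2.61, 2.19 and 6.66 CPM in the periphery, and the foveal eyes were below all nasal and peripheral ones (log2 fold change -1.87, SE 0.48, adjusted p = 0.00456 against the nasal location).

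Plexins, the semaphorin receptors, also went both ways along the retina: 3 of 9 were higher at the fovea/macula than in the periphery, 5 lower and 1 not called. The 3 higher ones were of class A. PLXNA4 (ENSMMUG00000005127) measured 21.7, 18.1, 22.1 and 22.8 at the fovea/macula, 11.4, 11.6, 11.2 and 16.9 at the perimacula, 10.9, 10.4, 10.1 and 9.12 at the nasal location and 4.73, 3.67, 7.66 and 4.88 CPM in the periphery. The foveal and peripheral eyes did not overlap with those of any other location (log2 fold change 2.09, SE 0.18, adjusted p = 9.25e-07). PLXNA2 and PLXNA1 were higher at the fovea/macula by 1.10 ± 0.11 and 0.77 ± 0.15 log2, while PLXNA3 was at 32.1 ± 3.05 and 32.6 ± 3.41 CPM and was not called (adjusted p = 0.815).

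All 3 class B plexins were lower at the fovea/macula than in the periphery of the retina, and so were PLXNC1 and PLXND1. The study lists SEMA5A of the RPE/choroid and PLXNB3 of the neural retina as a ligand-receptor pair, both downregulated in the macula. In RPE/choroid SEMA5A was not called here between fovea/macula and periphery. PLXNB3 (ENSMMUG00000003368) had the largest fall of any member: 3.79, 5.15, 6.19 and 5.39 at the fovea/macula, 5.91, 10.8, 16.7 and 7.35 at the perimacula, 17.1, 23.6, 20.4 and 26.1 at the nasal location and 22.4, 27.8, 37.4 and 45.6 CPM in the periphery. Every nasal and peripheral eye was above every foveal eye (log2 fold change -2.61, SE 0.26, adjusted p = 2.94e-06, and log2 fold change -2.06, SE 0.25, adjusted p = 9.96e-06 against the nasal location). PLXNB1 (ENSMMUG00000003074), the receptor of SEMA4D, measured 67.1, 71.95, 77.4 and 71.3 at the fovea/macula, 111, 129, 135 and 99.9 at the perimacula, 139, 157, 138 and 146 at the nasal location and 178, 204, 179 and 159 CPM in the periphery, with foveal eyes below all others and peripheral eyes above all others (log2 fold change -1.27, SE 0.10, adjusted p = 7.10e-07). PLXND1 (ENSMMUG00000012737), the receptor of SEMA3E, was uneven between eyes: 39.01, 13.4, 14.02 and 13.6 CPM at the fovea/macula and 87.6, 32.5, 48.4 and 31.1 in the periphery, with RM03 right the highest at both and its foveal value above 2 peripheral eyes. The test passed (log2 fold change -1.31, SE 0.42, adjusted p = 0.0149) but not without RM04 right (-1.15, adjusted p = 0.0981) or RM04 left (-1.36, adjusted p = 0.0567). PLXNB2 (-0.69 ± 0.18 log2) and PLXNC1 (-0.82 ± 0.15 log2) differed by less. The 6 RPE markers moved the same way in retina, all 6 lower in the mean at the fovea/macula, with sums of 146.7 to 228.6 CPM there and 593.7 to 1155 CPM in the periphery, or 0.777 to 1.81% and 2.39 to 10.3% of the RPE/choroid sum of the same eye. The plexins B1 to D1 were higher in RPE/choroid than in retina, and the part of RPE/choroid RNA in their peripheral retinal levels was not tested.

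All 7 slits and ROBO receptors were called between fovea/macula and periphery in retina (background 67.0%). Of these, 4 were higher and 3 lower at the fovea/macula (background 31% and 36%). ROBO2 (ENSMMUG00000012609), the slit receptor of ganglion cell axons, measured 218, 182, 186 and 188 at the fovea/macula, 110.1, 103, 104 and 174 at the perimacula, 81.2, 76.1, 95.9 and 92.2 at the nasal location and 49.04, 37.2, 61.6 and 48.4 CPM in the periphery. The foveal eyes were above all others and the peripheral eyes below all others (log2 fold change 2.05, SE 0.17, adjusted p = 9.72e-07, and log2 fold change 1.22, SE 0.15, adjusted p = 1.07e-05 against the nasal location). ROBO1 was at 27.2 ± 1.98 CPM at the fovea/macula, 14.7 ± 2.32 in perimacular, 13.2 ± 0.576 in nasal and 13.98 ± 3.15 in peripheral retina (log2 fold change 1.02, SE 0.17, adjusted p = 0.000228), and the eyes of the other 3 locations overlapped. SLIT2, a secreted ligand of both, was higher at the fovea/macula by 0.90 ± 0.12 log2, and ROBO4 by 0.89 ± 0.18.

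SLIT3 (ENSMMUG00000017087), SLIT1 and ROBO3 were lower at the fovea/macula of the retina. SLIT3 measured 3.71, 3.03, 4.94 and 5.85 at the fovea/macula, 8.62, 9.41, 13.05 and 8.68 at the perimacula, 10.1, 10.1, 14.1 and 12.4 at the nasal location and 5.86, 3.96, 11.9 and 7.86 CPM in the periphery. The foveal eyes were below every perimacular and nasal eye but overlapped with the periphery (log2 fold change -1.41, SE 0.20, adjusted p = 3.36e-05 against the nasal location, and log2 fold change -0.67, SE 0.21, adjusted p = 0.0132 against the periphery). The peripheral call was lost without RM03 right (-0.66, adjusted p = 0.0685) and without RM04 right (-0.45, adjusted p = 0.128). ROBO3 (log2 -0.43 ± 0.15) was likewise not called without RM03 right (-0.31, adjusted p = 0.173), RM04 right (-0.43, adjusted p = 0.0927) or RM04 left (-0.37, adjusted p = 0.125).

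In the netrin group 5 of the 6 genes tested in retina were higher at the fovea/macula than in the periphery and none was lower. The shares of all genes were 31% and 36%. DCC (ENSMMUG00000013999), the receptor through which netrin-1 attracts axons, measured 17.6, 14.6, 12.1 and 12.4 at the fovea/macula, 5.98, 6.24, 8.31 and 9.62 at the perimacula, 6.97, 4.75, 9.34 and 8.53 at the nasal location and 2.05, 1.43, 3.405 and 2.15 CPM in the periphery. The foveal eyes were above and the peripheral eyes below those of every other location (log2 fold change 2.75, SE 0.24, adjusted p = 1.27e-06). UNC5A, UNC5C and UNC5D, repulsive netrin receptors, were higher by 1.56 ± 0.17, 1.80 ± 0.42 and 0.98 ± 0.15 log2, whereas UNC5B measured 22.3 ± 2.94 and 22.5 ± 5.903 CPM and was not called (adjusted p = 0.776). NTN4 (ENSMMUG00000000521), a basement membrane netrin, was at 9.93, 8.25, 13.9 and 16.1 at the fovea/macula, 3.399, 3.54, 4.12 and 11.8 at the perimacula, 3.73, 3.74, 5.21 and 6.15 at the nasal location and 4.72, 5.46, 5.16 and 5.07 CPM in the periphery. The perimacular RM04 left eye overlapped with the foveal eyes and the others did not (log2 fold change 1.38, SE 0.26, adjusted p = 0.000486 against the nasal location, and log2 fold change 1.22, SE 0.30, adjusted p = 0.00366 against the periphery). NTN1, the ligand of DCC, had 0 to 5 counts in each of the 16 retina libraries, so no location of the retina can be compared for it at this depth.

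The ganglion cell markers moved with the members higher at the fovea/macula of the retina, and against the 15 lower there than in the periphery. Rod (9 of 9), bipolar cell (4 of 4) and Mueller glia and astrocyte (5 of 5) markers were lower in the mean at the fovea/macula than in the periphery. So were all 6 macrophage and all 6 fibroblast markers. The part of these cell types in the retinal differences was not tested. The RM04 left perimacular eye had the highest ganglion cell marker sum of that location (6990 CPM, the other 3 eyes 3246 to 4995) and the lowest rod marker sum (10640 CPM, the others 14480 to 16550). It also had the highest perimacular level of ROBO2, PLXNA4, SLIT2 and NTN4 and the lowest of SEMA7A.

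RPE/choroid was compared between the same locations. No guidance gene passed the test between fovea/macula and perimacula (0 of 44, background 0.0447%) or nasal location (0 of 44, background 0.361%). At an unadjusted p under 0.05 there were 11 guidance genes for the perimacula (25% of those tested, with 10.7% of all genes) and 4 for the nasal location (9.09%, with 15.5% of all genes). DESeq2 called 2 (background 2.0%) and 1 (background 3.30%). DESeq2's calls were SEMA3G and UNC5B against the perimacula and SEMA3C against the nasal location, and these 3 are named after their values were seen. SEMA3C in RPE/choroid measured 97.3, 67.7, 85.4 and 83.2 at the fovea/macula, 38.9, 38.04, 23.3 and 64.2 at the perimacula, 46.1, 46.9, 31.3 and 26.7 at the nasal location and 19.5, 55.2, 25.9 and 14.4 CPM in the periphery. Each foveal eye was above all eyes of the other 3 locations, yet edgeR gave an adjusted p of 0.154 for the nasal location (1.19 ± 0.36 log2) and 0.379 for the perimacula (1.02 ± 0.39 log2). The median absolute log2 fold change against the perimacula was 0.312 for the guidance genes and 0.144 for all genes.

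Between fovea/macula and periphery of RPE/choroid 22 of 44 guidance genes were called, 15 higher and 7 lower at the fovea/macula, with 44.1% of all genes called, 21.2% higher and 22.9% lower. With libraries left out in a way chosen after seeing the data, the counts of guidance genes and of all genes were both lower: without the 3 RPE/choroid libraries highest in rod markers (foveal RM04 right, peripheral RM03 right and RM04 left) 17 were called (background 36.8%), and without the 4 highest in Schwann cell markers 20 (background 34.1%). By role, 4 class 3 semaphorins were higher and 1 lower, 2 semaphorins of classes 4 to 7 higher and 2 lower, 4 plexins higher and 2 lower, 3 slits or ROBO receptors higher and 2 lower, and 2 of the netrin group higher.

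SLIT3, whose retinal level was lowest at the fovea/macula, had the largest rise toward the centre of RPE/choroid. It measured 76.3, 87.3, 78.8 and 82.9 at the fovea/macula, 62.4, 78.8, 61.7 and 71.2 at the perimacula, 84.2, 111, 72.7 and 41.3 at the nasal location and 9.91, 22.1, 23.99 and 5.15 CPM in the periphery. Every peripheral eye was below every eye of the other locations, which overlapped with each other (log2 fold change 2.41, SE 0.39, adjusted p = 0.0006). The smooth muscle markers had the same order between fovea/macula and periphery, and their part in the SLIT3 level was not tested. SLIT2 ran the other way, with 98.7, 81.8, 132 and 131 at the fovea/macula, 174, 102, 260.2 and 188 at the perimacula, 119.6, 112, 185 and 212 at the nasal location and 198, 274, 217 and 219 CPM in the periphery. The peripheral eyes were above all foveal eyes (log2 fold change -1.08, SE 0.21, adjusted p = 0.00181). The 6 fibroblast markers summed to 2883 to 3758 CPM at the fovea/macula and 4992 to 10020 CPM in the periphery, with 4 of 6 higher in the periphery, and their part in the SLIT2 level was not tested. ROBO4, the endothelial member of the ROBO family, measured 90.9 ± 15.1 CPM at the fovea/macula and 57.2 ± 4.18 CPM in the periphery (log2 fold change 0.65, SE 0.12, adjusted p = 0.0012). The endothelial markers moved with it, with 6 of 7 higher at the fovea/macula and sums of 1411 to 2055 CPM there and 862.9 to 1295 CPM in the periphery, and their part was not tested. ROBO1 (0.31 ± 0.11 log2) and SLIT1 (-1.78 ± 0.66 log2) were called as well, but neither stayed called when any 1 of the 4 eyes was left out, with adjusted p-values of 0.0551 to 0.141 for ROBO1 and 0.0521 to 0.218 for SLIT1.

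PLXNA2 (ENSMMUG00000004563) and PLXNA4 were higher at the fovea/macula of RPE/choroid too. PLXNA2 measured 136, 156, 92.1 and 97.98 at the fovea/macula, 104, 124, 60.05 and 68.2 at the perimacula, 122, 150.2, 83.3 and 73.9 at the nasal location and 23.4, 30.8, 29.2 and 28.6 CPM in the periphery, with all peripheral eyes far below the others (log2 fold change 2.05, SE 0.18, adjusted p = 1.45e-05). PLXNA4 measured 21.1, 20.1, 12.6 and 12.8 CPM at the fovea/macula and 0.959, 4.75, 6.78 and 2.62 in the periphery, again without overlap (log2 fold change 2.02, SE 0.54, adjusted p = 0.0108), but it was not called without RM04 left (2.06, adjusted p = 0.0598). The RPE/choroid fold change of SEMA3C between fovea/macula and periphery was 1.57 ± 0.40 log2 (adjusted p = 0.00893). This call was lost without RM03 right (1.42, adjusted p = 0.0594), without RM04 right (1.5, adjusted p = 0.05) and without the libraries highest in rod markers (1.03, adjusted p = 0.101). SEMA3F (1.33 ± 0.17 log2), UNC5B (1.26 ± 0.20), NTN4 (1.13 ± 0.14) SEMA6D (0.81 ± 0.15), SEMA3G (0.60 ± 0.08) and SEMA3A (0.79 ± 0.17) were also higher at the fovea/macula, the last not without the libraries highest in Schwann cell markers (0.79, adjusted p = 0.0537). PLXNA1 (0.28 ± 0.10) and SEMA4G (0.29 ± 0.11) were called, but each call was lost under several settings. PLXNA1 was not called without RM03 left (0.17, adjusted p = 0.134) or the libraries highest in Schwann cell markers (0.10, adjusted p = 0.431), and SEMA4G not without RM04 right (0.35, adjusted p = 0.0763) or those same libraries (0.35, adjusted p = 0.106). Neither was called without RM03 right (0.27, adjusted p = 0.12 for PLXNA1, and 0.26, adjusted p = 0.156 for SEMA4G), RM04 left (0.31, adjusted p = 0.106 and 0.26, adjusted p = 0.167), the libraries highest in rod markers (0.34, adjusted p = 0.0741 and 0.18, adjusted p = 0.267) or with the eye as block (0.27, adjusted p = 0.0613 and 0.29, adjusted p = 0.0572).

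The members lower at the fovea/macula of RPE/choroid were led by the SEMA4C entry ENSMMUG00000040289. Its levels were 3.99, 1.003, 1.76 and 2.399 at the fovea/macula, 12.8, 2.38, 6.71 and 5.27 at the perimacula, 3.13, 3.79, 4.04 and 3.19 at the nasal location and 8.47, 31.9, 10.4 and 7.05 CPM in the periphery (log2 fold change -2.56, SE 0.61, adjusted p = 0.00605). Its highest values were in the peripheral RM03 left and perimacular RM03 right libraries, which also had the highest Schwann cell marker sums, 14220 and 8685 CPM. Those libraries were the highest in SEMA3B as well (256 and 212 CPM, the next highest RPE/choroid library 102) and in the other SEMA4C entry (131 and 91.3 CPM). Without the 4 libraries highest in Schwann cell markers, entry ENSMMUG00000040289 was not called (-1.74, adjusted p = 0.0758). The part of Schwann cell RNA in these values was not tested.

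PLXNB3 in RPE/choroid separated the 2 animals, though not in the periphery. It measured 13.7, 15.1, 66.2 and 70.5 at the fovea/macula, 63.6, 22.5, 75.4 and 97.6 at the perimacula, 19.3, 16.96, 84.8 and 81.5 at the nasal location and 78.1, 119, 101 and 118 CPM in the periphery. At the fovea/macula and the nasal location both eyes of RM04 were far above both eyes of RM03, whereas in the periphery the animals overlapped. All peripheral eyes were above all foveal ones (log2 fold change -1.70, SE 0.43, adjusted p = 0.00834). The highest RM03 values, in the perimacular right and both peripheral libraries, came from the RM03 libraries highest in Schwann cell markers (8685, 5011 and 14220 CPM). The part of Schwann cell RNA in the PLXNB3 levels was not tested. SEMA7A measured 21.5, 20.2, 13.3 and 10.4 CPM at the fovea/macula and 36.03, 44.5, 20.7 and 24.7 in the periphery, with RM03 above RM04 at both and one overlap between the locations (log2 fold change -0.95, SE 0.15, adjusted p = 0.000461). PLXND1 was lower at the fovea/macula, at 323, 482, 313 and 476 CPM against 708, 766, 757 and 766 in the periphery, with no overlap (log2 fold change -0.92, SE 0.16, adjusted p = 0.00101). SEMA3E, its ligand, measured 11.2 ± 4.33 and 18.2 ± 3.85 CPM (log2 fold change -0.79, SE 0.22, adjusted p = 0.0135) and was not called without RM04 right (-0.66, adjusted p = 0.0895) or without the libraries highest in rod markers (-0.80, adjusted p = 0.0793).

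**Figure D3:**
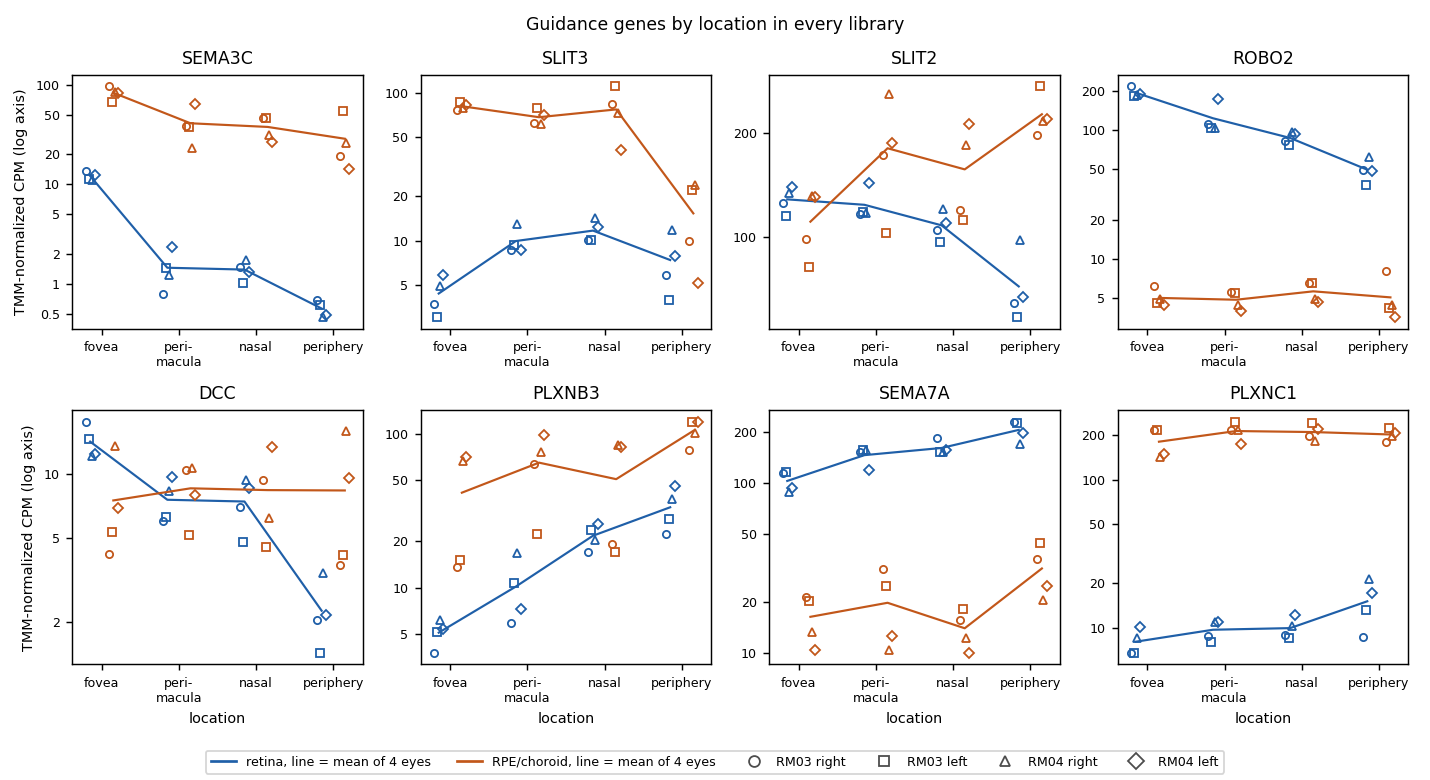
TMM-normalized CPM (log axis) of 8 guidance genes in every library by location, with 1 symbol for each eye and a line through the means of 4 eyes for each tissue. SEMA3C peaks at the fovea/macula in both tissues, and SLIT3 and SLIT2 run in opposite directions in retina and RPE/choroid between fovea/macula and periphery. ROBO2 and DCC fall outwards in retina, and PLXNB3 differs between the animals in RPE/choroid outside the periphery.

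Whether the 2 tissues changed alike between locations was tested as the difference of their fold changes. Between fovea/macula and periphery 20 of 44 guidance genes differed (13 with the more positive change in retina, 7 in RPE/choroid, background 40.2% with 19% and 21.2%), and between fovea/macula and nasal location 18 of 44 (8 and 10, background 23.5% with 11% and 12.5%). The second count was 5 without RM03 right (background 15.5%), 11 without RM04 right (background 15.7%) and 9 without RM04 left (background 15.3%), and the first was 13 without RM04 left (background 31.8%). The largest differences against the periphery were those of SLIT3 (-3.12 ± 0.49 log2, adjusted p = 5.15e-05), which was higher in the periphery of the retina and lower in the periphery of RPE/choroid, and of SEMA3C (2.90 ± 0.51, adjusted p = 0.00015) and DCC (2.90 ± 0.49, adjusted p = 0.000103). DCC fell outwards in retina and measured 4.19, 5.33, 13.5 and 6.92 CPM at the fovea/macula and 3.72, 4.15, 15.99 and 9.502 CPM in the periphery of RPE/choroid, where the eyes overlapped (adjusted p = 0.886).

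Of the 3 slit genes, SLIT2 and SLIT3 changed in opposite directions in the tissues, whereas SLIT1 was lower at the fovea/macula in both (log2 -0.71 in retina and -1.78 in RPE/choroid). SLIT2 changed by 0.90 in retina and -1.08 in RPE/choroid, a difference of 1.96 ± 0.25 log2 (adjusted p = 5.07e-06), and SLIT3 by -0.67 and 2.41. PLXNB2 (-0.69 in retina and 0.40 in RPE/choroid) and SEMA3E (0.94 and -0.79) were called in opposite directions too, with differences of -1.13 ± 0.25 (adjusted p = 0.00142) and 1.56 ± 0.59 (adjusted p = 0.0393). The RPE/choroid call of PLXNB2 was lost without RM03 right (0.45, adjusted p = 0.0538), without RM04 left (0.42, adjusted p = 0.0904) and without the libraries highest in Schwann cell markers (0.20, adjusted p = 0.271). The difference of SEMA3E was not called when any 1 eye was left out (1.53 to 1.62 log2, adjusted p = 0.0585 to 0.105), nor with the eye as block (1.56, adjusted p = 0.0533). PLXNA4 changed by nearly equal amounts, 2.09 in retina and 2.02 in RPE/choroid, and its difference of -0.084 ± 0.60 did not pass (adjusted p = 0.934).

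**Figure D4:**
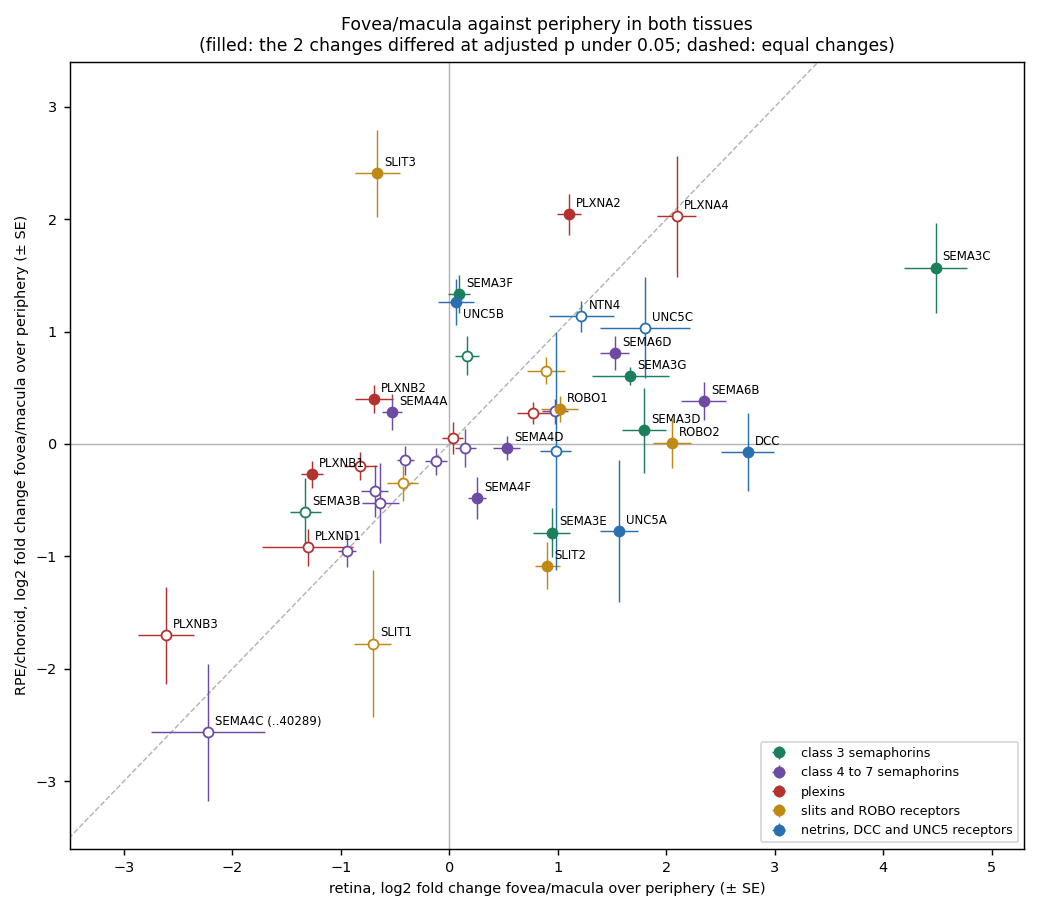
Log2 fold change of fovea/macula over periphery (± SE) in retina (x) and RPE/choroid (y) for the 42 guidance genes tested in both, coloured by role, filled where the 2 changes differed at an adjusted p under 0.05. SLIT3 and SLIT2 lie in opposite corners, SEMA3C far to the right, and PLXNA4 on the line of equal changes.

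Retina and RPE/choroid were then compared at each location, where both tissues share their flow cells. At the fovea/macula 12 guidance genes were higher in retina and 21 lower (33 of 44, background 74.6% with 37.8% higher and 36.8% lower), at the perimacula 10 and 23 (33 of 44, background 75.6% with 37.8% each), at the nasal location 14 and 22 (36 of 44, background 76.2% with 37.6% and 38.6%) and in the periphery 11 and 27 (38 of 44, background 74.3% with 37.2% and 37.1%). The median log2 fold change of the guidance genes lay between -0.689 in the periphery and -0.39 at the nasal location, and that of all genes between 0.00538 and 0.0431.

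Plexins were called in 1 direction by tissue: 8 of 9 were lower in retina at each of the 4 locations and none was higher (background 36.8 to 38.6% lower). PLXNA4 was the one not called, at any location. PLXNC1 (ENSMMUG00000018237) measured 6.77, 6.77, 8.597 and 10.1 CPM in foveal retina and 216, 217, 142 and 149 CPM in foveal RPE/choroid, with no overlap (log2 fold change -4.47, SE 0.24, adjusted p = 7.19e-13). PLXND1 measured 323, 482, 313 and 476 CPM in foveal RPE/choroid against the retinal values above, again without overlap (log2 fold change -4.34, SE 0.42, adjusted p = 7.89e-09). The smallest of these differences was that of PLXNA3 at the nasal location (log2 fold change -0.29, SE 0.12, adjusted p = 0.0389), which was not called without RM03 right (-0.25, adjusted p = 0.136), RM03 left (-0.27, adjusted p = 0.0595) or RM04 left (-0.26, adjusted p = 0.119). PLXNB3 at the nasal location was not called without RM04 right (-0.51, adjusted p = 0.35) or RM04 left (-0.62, adjusted p = 0.24), and in the periphery PLXNA2 and PLXNB1 were not called without RM04 left (-0.50, adjusted p = 0.0767 and -0.30, adjusted p = 0.056). With any 1 eye left out, all 8 stayed called as lower at the fovea/macula and the perimacula. In those fits 5444 to 5634 and 5607 to 5956 of 16288 to 16310 genes were called lower. At the nasal location and in the periphery 6 of the 8 stayed called without RM04 left. All genes called lower there numbered 5918 of 16406 and 5612 of 16310. The 7 endothelial markers moved the same way, with sums of 862.9 to 2055 CPM in RPE/choroid and 34.29 to 73.93 CPM in retina. So did the fibroblast sums (2410 to 10020 against 97.63 to 146.2 CPM) and the macrophage sums (915.6 to 2537 against 20.56 to 51.51 CPM). Smooth muscle, Schwann cell and RPE marker sums were higher in RPE/choroid as well. Rod, cone, ganglion cell and amacrine and horizontal cell sums were higher in retina, and bipolar and glial sums overlapped. The part of any of these cell types in the plexin levels was not tested.

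The ligands of these receptors were on either side. SEMA7A, the ligand of PLXNC1, was higher in retina at all 4 locations (log2 2.75 to 3.57), while PLXNC1 was lower there at all 4 (log2 -4.47 to -3.76). SEMA4D, the ligand of PLXNB1, was lower in retina, as PLXNB1 was (log2 -0.62 and -1.53 at the fovea/macula). SEMA3E, the ligand of PLXND1, was called in the periphery alone (log2 fold change -0.95, SE 0.42, adjusted p = 0.0482), and not without RM03 right (-0.65, adjusted p = 0.253) or RM03 left (-0.69, adjusted p = 0.197), nor with the eye as block (-0.94, adjusted p = 0.062). Of the class 3 semaphorins SEMA3B, SEMA3C, SEMA3D and SEMA3G were lower in retina at all 4 locations and SEMA3A was higher at all 4 (log2 1.24 to 1.90). SEMA3G (ENSMMUG00000018872), a secreted semaphorin known from endothelium, measured 1.93, 2.54, 2.899 and 1.96 CPM in foveal retina and 59.2, 61.02, 54.4 and 55.6 CPM in foveal RPE/choroid, with no overlap (log2 fold change -4.57, SE 0.27, adjusted p = 4.99e-12). SEMA3F was lower in retina at the fovea/macula (-0.67 ± 0.16 log2, adjusted p = 0.000793) and higher in the periphery (0.61 ± 0.16, adjusted p = 0.00176), though the peripheral call was lost without the libraries highest in Schwann cell markers (0.48, adjusted p = 0.0606).

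Membrane-bound semaphorins higher in retina at all 4 locations were SEMA4F, SEMA5B, SEMA6C and SEMA7A, and those lower at all 4 were SEMA4A and SEMA4D. SEMA4A measured 13.99 to 20.6 CPM in foveal retina and 165 to 220.0 CPM in foveal RPE/choroid (log2 fold change -3.45, SE 0.18, adjusted p = 4.72e-13). The difference of SEMA6C was small (log2 0.24 to 0.55) and rested on single eyes at every location but the nasal one, and at the fovea/macula it was not called without RM03 right (0.29, adjusted p = 0.0713), RM04 right (0.24, adjusted p = 0.119) or RM04 left (0.23, adjusted p = 0.114). SEMA6B was higher in retina at the fovea/macula (1.6 ± 0.20 log2) and the nasal location (0.51 ± 0.18) and not called in the periphery (-0.35 ± 0.20), and its nasal call was lost without RM04 left (0.50, adjusted p = 0.0699).

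ROBO2 and SLIT1 were higher in retina at every location, and SLIT3 and ROBO4 lower. ROBO2 in foveal RPE/choroid measured 6.14, 4.55, 4.89 and 4.402 CPM, far below every retinal eye listed above (log2 fold change 5.31, SE 0.26, adjusted p = 2.62e-13). Within RPE/choroid its mean lay at 4.83 to 5.62 CPM over the 4 locations, and no location differed from the fovea/macula beyond the spread (adjusted p = 0.763 to 0.989). SLIT1 (ENSMMUG00000010428), the slit of neurons, measured 5.23, 4.86, 5.09 and 5.702 CPM in foveal retina and 0.573, 0.847, 0.154 and 0.21 CPM in foveal RPE/choroid, where it had 7 to 38 counts per library and RM04 was below RM03 (log2 fold change 3.67, SE 0.62, adjusted p = 2.15e-05). SLIT3 was lower in retina at the fovea/macula (log2 fold change -4.20, SE 0.39, adjusted p = 4.25e-09) and in the periphery (log2 fold change -1.08, SE 0.34, adjusted p = 0.00793), and the latter call was lost without RM03 left (-0.62, adjusted p = 0.152) and without the libraries highest in Schwann cell markers (-0.83, adjusted p = 0.0873). SLIT2 was not called at the fovea/macula (0.27 ± 0.18 log2) and was lower in retina in the periphery (-1.68 ± 0.18 log2, adjusted p = 4.96e-08).

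The netrins lay in RPE/choroid and most UNC5 receptors in retina. NTN1 (ENSMMUG00000045539) measured 5.19, 5.84, 4.98 and 4.91 CPM in foveal RPE/choroid, 211 to 290 counts, against 0, 0.0348, 0.0824 and 0.0497 CPM in foveal retina, 0 to 5 counts. Its fitted fold change rests on those retinal counts and is not given (adjusted p = 2.91e-10). NTN4 was lower in retina at all 4 locations (log2 -4.54 to -3.38). UNC5D (ENSMMUG00000010638) measured 14.1, 12.8, 19.8 and 17.1 CPM in foveal retina and 0, 0.312, 0.11 and 0.303 CPM in foveal RPE/choroid, where it had 0 to 14 counts (log2 fold change 6.54, SE 0.67, adjusted p = 2.12e-08). UNC5A (ENSMMUG00000002649) measured 44.4, 62.5, 56.03 and 60.9 CPM in foveal retina and 0.751, 0.691, 3.28 and 2.42 CPM in foveal RPE/choroid, so retina was far higher in all 4 eyes (log2 fold change 5.18, SE 0.54, adjusted p = 3.26e-08). UNC5B was higher in retina by little at the fovea/macula (0.44 ± 0.19 log2, adjusted p = 0.0472), and that call was lost without RM04 right (0.37, adjusted p = 0.125), without RM04 left (0.40, adjusted p = 0.161) and with the eye as block (0.44, adjusted p = 0.0619). DCC, the other netrin receptor, was higher in retina at the fovea/macula (1.12 ± 0.35 log2, adjusted p = 0.00654) and lower in the periphery (-1.78 ± 0.35 log2, adjusted p = 0.000135). The foveal call was lost without RM03 right (0.82, adjusted p = 0.0547) and RM03 left (0.98, adjusted p = 0.0531). UNC5C was lower in retina at the nasal location and in the periphery (-1.28 ± 0.41 and -1.41 ± 0.46 log2), and both calls were lost without RM04 right (-1.14, adjusted p = 0.0633 and -1.16, adjusted p = 0.102). The peripheral one was lost without RM03 left (-0.87, adjusted p = 0.178) or RM04 left (-1.26, adjusted p = 0.0747) too.

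**Figure D5:**
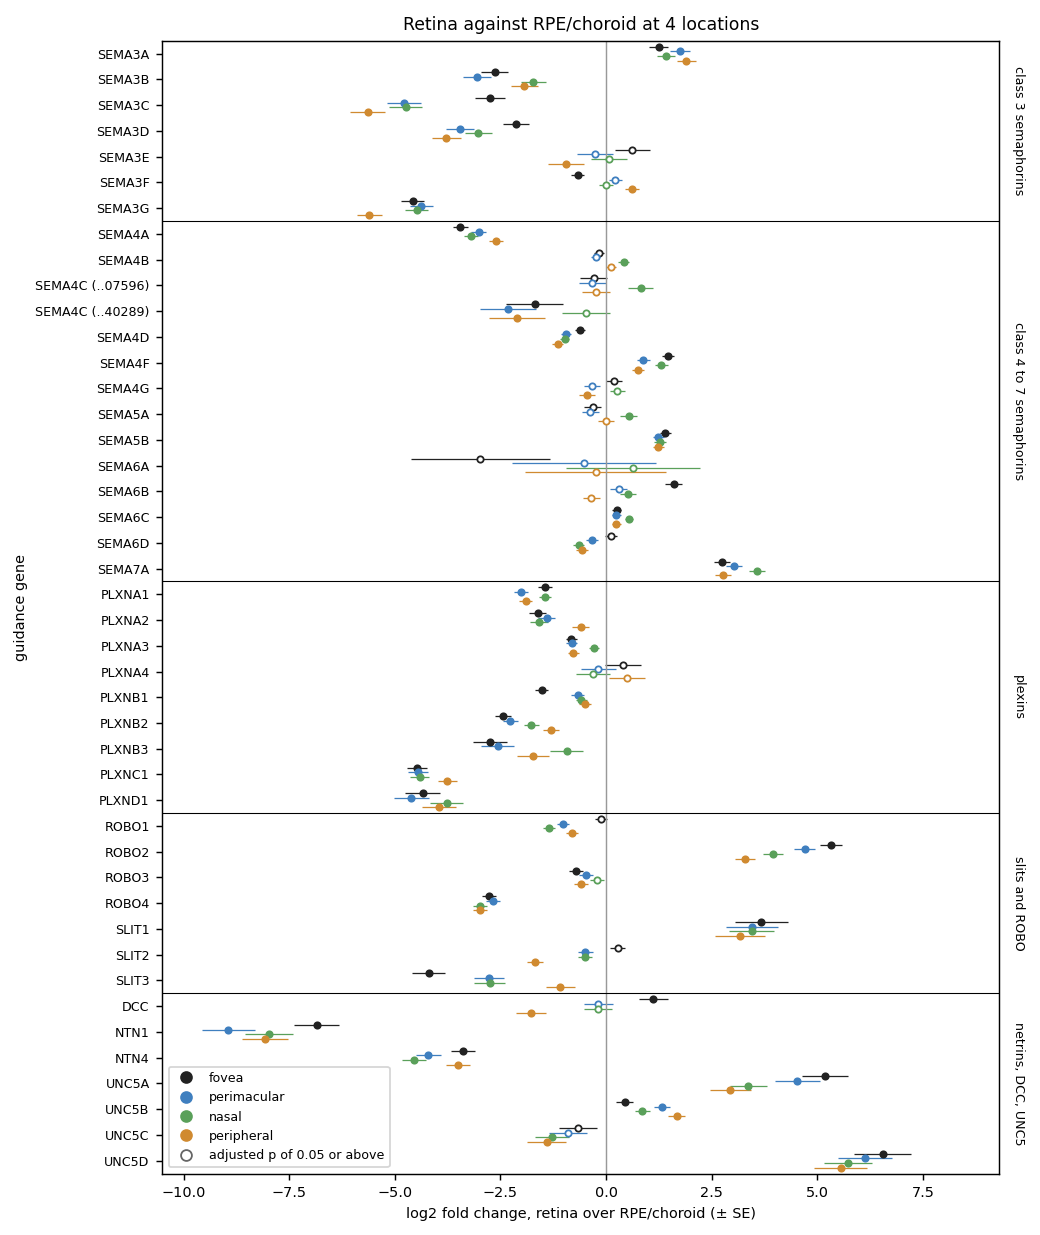
Log2 fold change of retina over RPE/choroid (± SE) for each of the 44 guidance genes at 4 locations, open where the adjusted p was 0.05 or above. 8 of 9 plexins lie to the left at every location, and ROBO2, SLIT1, UNC5A, UNC5D and SEMA7A to the right. NTN1 rests on 0 to 5 counts in retina, so its distance from 0 is not measured closely.

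Other genes of the pathway (co-receptors, further ligands and cytoplasmic partners) were counted from a list of 59 genes, of which 57 were tested in each comparison. Between fovea/macula and periphery 32 were higher and 13 lower in retina (background 67.0%) and 19 higher and 8 lower in RPE/choroid (background 44.1%), and 37 differed between the tissues (background 40.2%). In retina the largest rises at the fovea/macula were MICAL2, an actin-oxidizing enzyme downstream of plexins (log2 fold change 3.88, SE 0.30, adjusted p = 4.84e-07), L1CAM, an adhesion molecule of axons (log2 fold change 3.44, SE 0.22, adjusted p = 1.67e-07), DSCAM, a further netrin receptor (log2 fold change 3.24, SE 0.25, adjusted p = 5.14e-07), and LIMK1, an actin-regulating kinase (log2 fold change 2.47, SE 0.16, adjusted p = 1.86e-07). The largest falls were ABLIM3, an actin-binding protein, and the kinase FES (log2 fold change -1.5, SE 0.10, adjusted p = 2.42e-07, and log2 fold change -1.36, SE 0.14, adjusted p = 5.19e-06). ABLIM3 ran the other way in RPE/choroid (log2 fold change 1.03, SE 0.11, adjusted p = 4.59e-05), and the difference was -2.56 log2 (adjusted p = 1.58e-08).

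The neuropilins were far higher in RPE/choroid than in retina, as most of their class 3 ligands were. NRP1 measured 5.77 ± 0.508 CPM in foveal retina and 378 ± 79.8 CPM in foveal RPE/choroid (log2 fold change -5.98, SE 0.20, adjusted p = 6.78e-16), and NRP2 measured 17.6 ± 3.97 and 370.4 ± 76.5 CPM (log2 fold change -4.34, SE 0.17, adjusted p = 1.07e-14). Within retina they went opposite ways, NRP2 higher at the fovea/macula than at the perimacula (log2 fold change 1.69, SE 0.15, adjusted p = 2.38e-05) and NRP1 lower (log2 fold change -0.61, SE 0.13, adjusted p = 0.00344). NEO1, a receptor related to DCC, was higher at the fovea/macula of RPE/choroid, at 223 ± 50.3 CPM against 88.1 ± 10.8 CPM in the periphery (log2 fold change 1.31, SE 0.075, adjusted p = 1.28e-06).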

How the data were processed

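Poly-A RNA of neural retina and RPE/choroid punches was sequenced by the authors as 100 bp paired-end reads over 136 lanes. Per the labels and the methods, Salmon 0.13 quantified transcripts on Mmul_8.0.1, and length-scaled values were summed to genes. The deposited column named TPM therefore holds estimated counts (expected counts), not TPM, and gene symbols follow human orthology. Each lane lists 19432 entries, 10 of which repeat an identifier.

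Lanes were summed into 32 libraries and the estimated counts were rounded. edgeR 4.0.16 (R 4.3.3; quasi-likelihood test, TMM, filterByExpr with a minimum count of 10) was fitted to all genes with the macaque as covariate, in 12 comparisons, with adjustment over all genes tested. Fits held 3 locations, after the study's design, and all 4 where nasal libraries were compared. Levels are TMM-normalized CPM over the 32 libraries, mean ± SD of 4 eyes. Log2 fold changes are those of the edgeR fit at its default prior count. Members, roles, marker lists and pathway genes were chosen with earlier results of these data known, and the members matched 42 entries of a gene name table by identifier and symbol. Members given in full were, in 4 comparisons, up to 4 called in each direction with the largest change, a mean of at least 1 log2 CPM and the same direction in 4 of 4 eyes, with any called in RPE/choroid between fovea/macula and perimacula or nasal location. This rule gave 22 members.

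By the labels, libraries with the same replicate number come from the same eye, so the numbers pair the samples. Deviations from the group means, over 13695 genes with a mean count of at least 100, correlated with a median r of 0.219 between libraries of the same eye, 0.229 between the 2 eyes of an animal and -0.221 between animals. Such deviations cancel within a group, so the negative value between animals follows in part from the centring. The value for the same eye was not above that for the other eye of the animal. Alternatives were DESeq2 1.42.0, RLE normalization, no filter, the eye as replicate block, nasal libraries included, each eye left out, and, chosen after seeing the data, leaving out RPE/choroid libraries above 3 times the median rod marker sum or 5 times the median Schwann cell marker sum. On simulated counts the test recovered 91% of changed genes for retina fovea/macula against periphery (15274 genes), 71% for the same comparison in RPE/choroid (15535 genes) and 77% for the tissues at the fovea/macula (16151 genes), with false calls making up 5.7%, 2.74% and 3.75% of the genes called. Only a small set of genes was changed there, all by the same fixed amount. Libraries were drawn independently, with no effect of animal or eye. The shares hold for that setting and do not measure the tests on the real data. Plots were drawn with matplotlib 3.10.9. No sequences are printed, since the annotation at hand is of another build.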

Additional observations from a re-analysis of the deposited data

Results flagged for a closer look

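In 13 of 176 groups of 4 eyes, 1 eye stood apart from the other 3 by Dixon's test, which chance gives in about 1 of 20 groups. In retina at the perimacula the RM04 left eye stood apart in NTN4 (11.83 CPM), PLXNA4 (16.9 CPM), ROBO2 (173.5 CPM) and SLIT2 (143.8 CPM), all high, and in SEMA7A (119.4 CPM), which was low. That library also had the highest ganglion cell marker sum of its group. Elsewhere in retina the eyes apart were RM03 right in PLXND1 at the fovea/macula (39.01 CPM) and in SEMA7A at the nasal location (183.6 CPM), and RM04 left in the SEMA4C entry ENSMMUG00000040289 in the periphery (6.657 CPM). In RPE/choroid they were RM04 right in NTN4 at the fovea/macula (140.9 CPM), RM03 right in NTN1 (4.055 CPM) and PLXND1 (708.1 CPM) in the periphery, both low, and RM03 left in SEMA3B (256 CPM) and the SEMA4C entry ENSMMUG00000040289 (31.9 CPM) in the periphery, in the library highest in Schwann cell markers.

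The change between fovea/macula and another location differed between the tissues in 38 values, given here as the log2 fold change in retina minus that in RPE/choroid, all at an adjusted p under 0.05 by edgeR. Against the periphery the more positive change was in retina for SEMA3C (2.90), DCC (2.90), UNC5A (2.24), ROBO2 (2.02), SLIT2 (1.96), SEMA6B (1.95), SEMA3D (1.65), SEMA3E (1.56), SEMA3G (1.03), SEMA4F (0.71), ROBO1 (0.69), SEMA6D (0.69) and SEMA4D (0.53). It was in RPE/choroid for SLIT3 (-3.12), SEMA3F (-1.29), UNC5B (-1.24), PLXNB2 (-1.13), PLXNB1 (-1.03), PLXNA2 (-1.01) and SEMA4A (-0.85). Of these 20, the 10 that stayed called under every setting were SEMA3C, DCC, ROBO2, SLIT2, SEMA6B, SLIT3, SEMA3F, UNC5B, PLXNB2 and PLXNB1. UNC5A was not called without RM03 right (1.61, adjusted p = 0.127), RM04 left (2.40, adjusted p = 0.0531) or the libraries highest in rod markers (1.58, adjusted p = 0.0604). SEMA3E was lost with each eye left out, with the eye as block and without the libraries highest in rod or in Schwann cell markers. Without RM03 right PLXNA2 (-0.79, adjusted p = 0.0997) and ROBO1 (0.52, adjusted p = 0.0954) were not called, and ROBO1 not without RM03 left either (0.73, adjusted p = 0.0517). SEMA3G was not called without RM03 left (0.81, adjusted p = 0.0974), RM04 right (0.73, adjusted p = 0.218), RM04 left (1.11, adjusted p = 0.0881) or the libraries highest in Schwann cell markers (1.13, adjusted p = 0.0518). Without RM04 left SEMA3D (1.22, adjusted p = 0.0823), SEMA4A (-0.83, adjusted p = 0.0586), SEMA4D (0.55, adjusted p = 0.0938) and SEMA6D (0.56, adjusted p = 0.0657) were not called. SEMA4D was also lost without RM03 left (0.44, adjusted p = 0.0868), SEMA4F without RM03 left (0.69, adjusted p = 0.0507) or RM04 right (0.54, adjusted p = 0.0567), and SEMA6D without RM04 right (0.56, adjusted p = 0.0942) or the libraries highest in rod markers (0.55, adjusted p = 0.0783).

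Against the nasal location, which shared flow cells with the fovea/macula, the more positive change was in retina for SEMA3C (1.96), UNC5A (1.76), ROBO2 (1.32), ROBO1 (1.18), NTN4 (1.12), SEMA6B (1.04), SLIT2 (0.74) and SEMA6D (0.73). It was in RPE/choroid for PLXNB3 (-1.82), SLIT3 (-1.47), the SEMA4C entry ENSMMUG00000007596 (-1.16), PLXNB1 (-0.98), SEMA5A (-0.88), SEMA7A (-0.87), PLXNB2 (-0.70), SEMA3F (-0.70), SEMA4B (-0.62) and PLXNA3 (-0.58). Of these 18, the 5 that stayed called under every setting were PLXNB1, ROBO1, ROBO2, SEMA3C and SEMA6B. The other 13 were each lost when 1 or more eyes were left out, with all-gene shares of 15.3 to 19.1% in those fits against 23.5% with all eyes.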

How the results depend on the processing

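No called value of a guidance gene changed direction under any alternative. Of 288 called values, 288 stayed called with DESeq2, 284 with RLE normalization, 280 with no filter and 274 with the eye as replicate block, and 202 of 204 with nasal libraries included. Without eye 1, 2, 3 or 4 (RM03 right, RM03 left, RM04 right, RM04 left) 228, 257, 247 and 242 stayed called. Under every setting run 9 of 22 calls held in retina for fovea/macula against perimacula, 22 of 30 against the nasal location and 31 of 36 against the periphery, 12 of 22 in RPE/choroid against the periphery, and 29 of 33, 28 of 33, 28 of 36 and 29 of 38 between tissues at the fovea/macula, perimacula, nasal location and periphery. For the tissue difference 5 of 18 held against the nasal location and 10 of 20 against the periphery.

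With 1 eye left out the counts of members called ranged in retina from 11 to 19 (perimacula), 24 to 28 (nasal location) and 32 to 36 (periphery), and in RPE/choroid from 0 to 0, 0 to 0 and 16 to 20. The shares of all genes called in those retina fits were 20.9 to 31.2%, 42.9 to 46.2% and 58.9 to 63.2%. For RPE/choroid the shares were 0 to 0.0318%, 0 to 0.0633% and 30.1 to 38.4%. Between tissues the member counts ranged from 30 to 33, 29 to 33, 32 to 35 and 33 to 36 at the fovea/macula, perimacula, nasal location and periphery, and for the tissue difference from 5 to 14 (nasal location) and 13 to 17 (periphery), each with fewer samples in the fit. All-gene shares between tissues were 69.3 to 71.9%, 69.6 to 72.8%, 71.1 to 73.5% and 69.1 to 70.9%. Those of the tissue difference were 15.3 to 19.1% and 31.1 to 32.9%. With the replicate block (paired by eye) the member counts were 19, 30 and 36 in retina, 0, 0 and 18 in RPE/choroid, 32, 32, 36 and 36 between tissues and 18 and 19 for the tissue difference. All-gene shares with the block were 31.7%, 50.9% and 65.1% in retina and 0.00638%, 0.190% and 40.5% in RPE/choroid. Between tissues the shares were 73.9%, 75.0%, 75.9% and 73.7%, and for the tissue difference 22.6% and 38.7%. Beside the calls given above, the block lost ROBO1 (0.31, adjusted p = 0.0643) and SLIT1 (-1.78, adjusted p = 0.0724) in RPE/choroid against the periphery, SEMA6C between tissues at the perimacula (0.24, adjusted p = 0.057) and in the periphery (0.24, adjusted p = 0.0513) and, for the tissue difference against the nasal location, the SEMA4C entry ENSMMUG00000007596 (-1.16, adjusted p = 0.0523). It changed no other call named here. In RPE/choroid DESeq2 called 2 against the perimacula and 1 against the nasal location. Without the libraries highest in Schwann cell markers, edgeR called 2 in these comparisons. All-gene shares in those fits were 0.126% for the perimacula and 1.72% for the nasal location, against 0.0447% and 0.361% with all libraries. The cause of these calls was not tested. The number of members with their highest mean in RPE/choroid was 30 with TMM and 29 with plain CPM. Depth limits NTN1 and SEMA6A in retina and UNC5D and SLIT1 in RPE/choroid, which had few counts there. The 4 eyes of 2 animals cannot give the spread between animals.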

Other observations

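The list of other guidance pathway genes was also compared between tissues. Of 57 tested, 28 were higher and 23 lower in retina at the fovea/macula (background 74.6%), and 19 and 22 in the periphery (background 74.3%). At the fovea/macula the largest differences toward retina were those of DSCAM (log2 fold change 7.27, SE 0.45, adjusted p = 8.68e-12), CRMP1, a cytoplasmic mediator of semaphorin signals (log2 fold change 7.06, SE 0.54, adjusted p = 2.51e-10), and NRCAM, an adhesion molecule of axons (log2 fold change 6.85, SE 0.81, adjusted p = 1.74e-07), and the largest toward RPE/choroid beside NRP1 and NRP2 were those of RRAS, a small GTPase on which plexins act (log2 fold change -4.49, SE 0.15, adjusted p = 5.83e-16), and CD72, a receptor of SEMA4D on B cells (log2 fold change -4.37, SE 0.60, adjusted p = 1.42e-06).

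In RPE/choroid between fovea/macula and periphery the largest rises in that list were NELL2, a secreted ligand of ROBO3 (log2 fold change 1.75, SE 0.52, adjusted p = 0.0192), and MICAL2 (log2 fold change 1.48, SE 0.23, adjusted p = 0.000463), and the largest fall beside CD72 was DPYSL3, a relative of CRMP1 (log2 fold change -0.59, SE 0.17, adjusted p = 0.0167). MICAL2 was thus higher at the fovea/macula in both tissues.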
